A study of Homo sapiens with 9 samples.

Results

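Mitochondrial protein import genes encode the machinery that carries proteins made in the cytosol into mitochondria. A list of 35 gene symbols was described here, 35 of 27860 genes with a summed FPKM in the tables (a level scaled by Cufflinks for both transcript length and library size). FPKM were summed over all RefSeq entries of a symbol. The list was drawn up with earlier results of these libraries in view, and *TIMM22* in it was chosen by its measured difference between the hairpins, so the values of *TIMM22* are given as a description without a test. By the place of the protein, 12 genes were grouped with the outer membrane, 7 with the intermembrane space and 16 with the inner membrane and matrix. The 12 include *TOMM34*, although its protein is cytosolic. Of the 35, 34 reached a mean of 1 FPKM over the 9 libraries, the level asked of all 12509 genes tested. *DNAJC15*, which encodes a J-domain protein of the import motor, did not, at 0.35 to 0.454 FPKM. Counts of called genes below are therefore over 33 genes, *TIMM22* left out.

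The study asked how knockdown of *FZD6*, a Frizzled receptor of Wnt ligands, alters DU145 cells, an established human prostate cancer line. The 9 RNA-seq libraries fall into 3 groups of 3, named control (scrambled shRNA), shRNA1 and shRNA2 (hairpins against *FZD6*). All 9 carry the genotype label WT, and every group, the control included, expresses an shRNA. The study's methods name a constitutive vector, pLKO.1, and a doxycycline-inducible one, Tet-pLKO-GFP, and which of them these libraries carried is not given in the sources used here. Whether the 3 libraries of a group came from separate cultures or infections is not given in the sources used here, so p-values measure only the spread between these libraries, and a change in RNA cannot be told apart from a change in the cells that remain after infection.

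*FZD6* itself was at 20.04 to 20.9 FPKM in control libraries, 9.47 to 10.2 with shRNA1 and 7.69 to 8.79 with shRNA2, and the knockdown and control libraries did not overlap (log2 change -1.12, SE 0.085, exact p = 0.0119 in a two-sided permutation test, the lowest that 6 against 3 libraries can reach). Depth estimated from the confidence bounds in the tables was 33.03 to 41.4 M fragments per library. The keratin genes *KRT8*, *KRT18* and *KRT19* were at 151.5 FPKM or above in every library. *KLK3*, *KLK2* and *TMPRSS2* stayed under 0.1 FPKM in all 9, as did 5 of 5 endothelial markers, 4 of 5 fibroblast markers and, at 0, *PTPRC* and *CD3E*. The summed leukocyte list was 18.1 to 19.2 FPKM in control libraries, 22.2 to 23.7 with shRNA1 and 26.0 to 27.9 with shRNA2, almost all of it from *CD68*, a lysosomal gene that cells other than leukocytes also express. Its part in the values below was not tested.

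Nearly all mitochondrial proteins enter through the translocase of the outer membrane, TOM, whose pore is TOMM40 and whose receptors are TOMM20, TOMM22 and TOMM70. Barrel proteins are passed to the sorting and assembly machinery around SAMM50, small cysteine-rich proteins are trapped in the intermembrane space by the oxidoreductase CHCHD4, and carrier proteins are escorted by small TIM chaperones to the TIM22 complex, which inserts them into the inner membrane. Proteins with a cleavable presequence pass through TIM23, are pulled into the matrix by a motor built on the HSP70 protein HSPA9, and lose the presequence to the peptidase of PMPCA and PMPCB.

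The promoters of 4 genes are shown, because *TIMM22* differed between the hairpins, *TOMM6* and *TIMM10* had the largest rises of the outer membrane and the intermembrane space, and *CHCHD4* is the import gene called with both hairpins whose promoter held 2 overlapping matches of the NRF1 letters. Each is a window of 300 bases around the RefSeq transcription start on GRCh38.p14, 5′ to 3′ on the strand of the gene. The *TIMM22* window is chr17:996879-997178 on the plus strand, that of *TOMM6* is chr6:41787444-41787743 on the plus strand, that of *TIMM10* is chr11:57530705-57531004 on the minus strand and that of *CHCHD4* is chr3:14124821-14125120 on the minus strand. Capitals mark matches, on either strand, of the letters GCATGCGC (core of the site of NRF1, a regulator of mitochondrial genes), CCGGAAG (ETS family, which includes GABPA) and ATGGCGG (YY1).
TIMM22: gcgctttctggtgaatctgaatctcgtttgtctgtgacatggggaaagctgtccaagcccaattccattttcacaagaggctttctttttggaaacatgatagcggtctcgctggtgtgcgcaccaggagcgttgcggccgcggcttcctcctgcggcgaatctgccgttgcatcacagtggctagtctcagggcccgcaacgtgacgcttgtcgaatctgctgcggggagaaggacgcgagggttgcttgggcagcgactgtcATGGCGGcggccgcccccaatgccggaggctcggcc
TOMM6: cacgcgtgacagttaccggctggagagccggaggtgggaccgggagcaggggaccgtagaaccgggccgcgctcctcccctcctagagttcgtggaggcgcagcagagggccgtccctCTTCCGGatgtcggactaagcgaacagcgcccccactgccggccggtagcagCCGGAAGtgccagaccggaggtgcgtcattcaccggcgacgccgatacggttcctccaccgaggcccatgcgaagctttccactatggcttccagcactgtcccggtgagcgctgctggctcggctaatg
TIMM10: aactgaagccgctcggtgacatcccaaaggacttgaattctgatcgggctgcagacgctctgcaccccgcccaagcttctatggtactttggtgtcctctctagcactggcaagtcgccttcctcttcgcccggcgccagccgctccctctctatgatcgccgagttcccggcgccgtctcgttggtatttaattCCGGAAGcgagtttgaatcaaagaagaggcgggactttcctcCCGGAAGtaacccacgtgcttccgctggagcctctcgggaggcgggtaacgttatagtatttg
CHCHD4: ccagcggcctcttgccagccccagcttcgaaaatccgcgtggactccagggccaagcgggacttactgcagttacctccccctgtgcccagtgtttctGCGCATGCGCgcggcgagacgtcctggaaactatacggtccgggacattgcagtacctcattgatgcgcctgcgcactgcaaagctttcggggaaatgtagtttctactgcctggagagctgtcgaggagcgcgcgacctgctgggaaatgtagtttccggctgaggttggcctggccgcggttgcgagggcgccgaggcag

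Promoters were found for 32 of the 35 genes, all but *TOMM5*, *TIMM8B* and *GRPEL1*. The ETS letters were in 14 of the 32, against 10.7% of all 27305 promoters of the same length, and in both promoters printed for *TOMM6* and *TIMM10*. The NRF1 letters were in 5 of the 32 (*TOMM7*, *TIMM9*, *TIMM10B*, *CHCHD4* and *PAM16*), against 3.27% of all promoters, and the YY1 letters in 6 (*TIMM22*, *TIMM21*, *TIMM50*, *TIMM44*, *PMPCA* and *PMPCB*), against 5.72%. At least 1 of the 3 was present in 23 of the 32, against 17.4% of all promoters. All promoters include those of genes not tested here, and the share among tested genes alone is not given. In *TIMM22* the YY1 letters alone were found, downstream of the transcription start. The ETS letters were present in 7 of the 13 promoters of genes called in knockdown below and in 6 of the 17 promoters of genes not called. A match is a description of the letters and not of a bound site.

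The level of the import genes in control cells spanned 3.07 to 221 FPKM among those tested. The highest were 3 small subunits of TOM, *TOMM5* (221 ± 7.3 FPKM, SD, n = 3), *TOMM6* (142 ± 3.6) and *TOMM7* (125 ± 2.6), which brace the pore. *MTX1* (metaxin 1, 98.3 ± 0.8), *HSPA9* (94.1 ± 0.73) and *TIMM23* (89.7 ± 2.7) came next, within 10 FPKM of each other, and *TOMM40* followed at 80.8 ± 2.1. The outer membrane genes had a median of 62.2 FPKM, the intermembrane space genes 21.6 and the inner membrane and matrix genes 28.6. At the low end stood *TIMM8A* (3.07 ± 0.78), *TIMM21* (7.56 ± 0.44), *TIMM10B* (7.71 ± 0.41) and *TOMM40L* (8.89 ± 0.35). FPKM are per length, so these levels can be set against each other, but entries that share reads weaken that for *TIMM23*, whose near-identical copy *TIMM23B* is listed at 4.34 FPKM, and for *MTX1*, *PAM16* and *TIMM22*, which are also listed on alternate contigs.

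**Figure D1:**
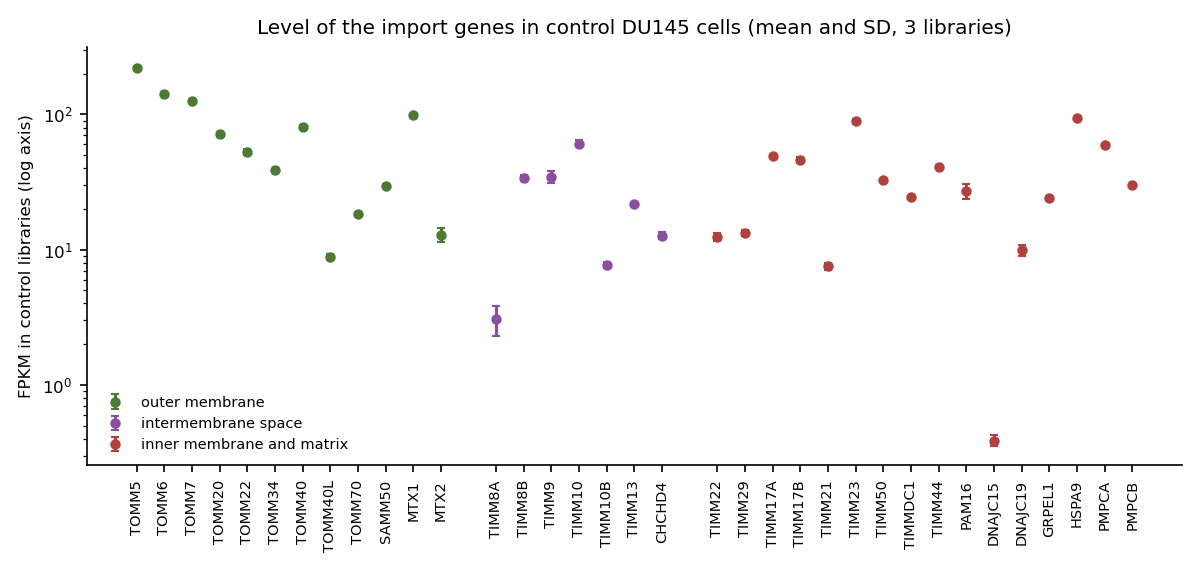
FPKM of each import gene in control DU145 cells on a log axis (points are means and bars SD of 3 libraries), coloured by the place of the protein. *TOMM5*, at 220.6 FPKM, is the highest and *DNAJC15*, at 0.387 FPKM, the lowest, and the small TOM subunits stand above the TIM22 genes.

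In *FZD6* knockdown cells some of the import genes rose, in small steps. Compared with control, 15 of 33 passed the test as higher and 0 as lower, whereas 13.5% of all tested genes were called higher and 7.1% lower. The log2 change of log2(FPKM + 1) was above 0 in 33 of 33, against 7278 of all 12509 tested genes. Its median was 0.13 over the 33 genes, against 0.03 over all tested genes. On the linear scale the median corresponds to a rise of 9.18%. Every knockdown library lay above every control library for 19 of 33 genes, against 16.4% of all tested genes. By place, 5 of 12 outer membrane genes, 4 of 7 intermembrane space genes and 6 of 14 inner membrane and matrix genes were called higher, with medians of 0.14, 0.16 and 0.12 and ranges of 0.053 to 0.24, 0.032 to 0.27 and 0.077 to 0.19 that overlapped. The difference between these places was not tested, since genes are not replicates. The count was 6 without control library 1, 4 without control library 2 and 8 without control library 3. The shares of all tested genes called in those fits are not given here. Whether the lower counts are particular to the import genes was therefore not tested.

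**Figure D2:**
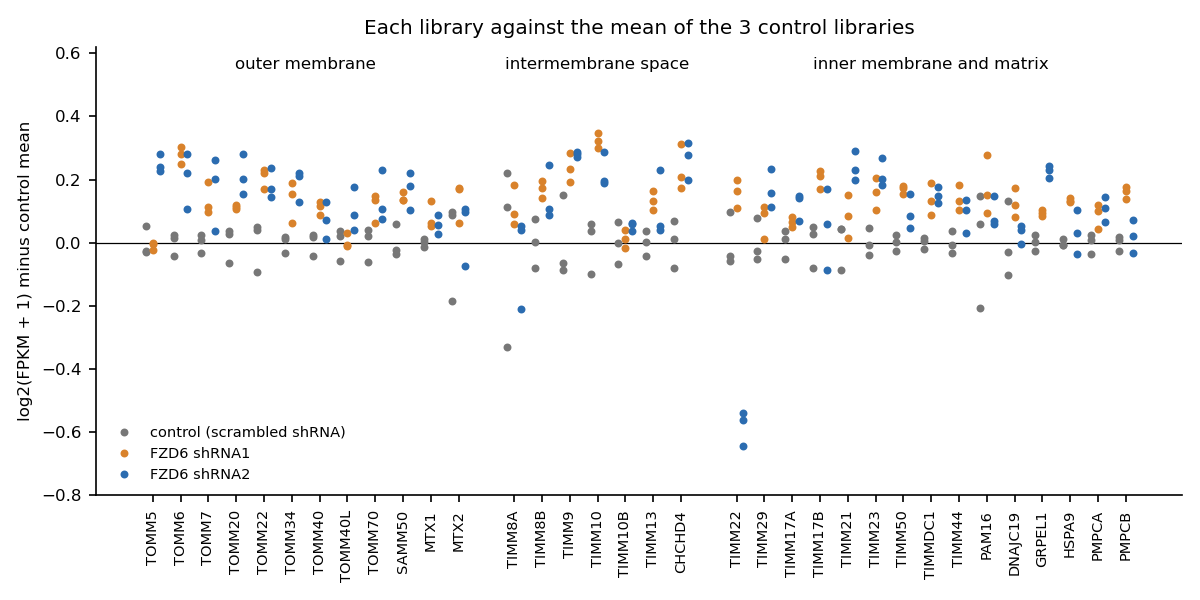
log2(FPKM + 1) of each library minus the mean of the 3 control libraries, for the 34 import genes tested, grouped by the place of the protein. Grey points are control libraries, orange shRNA1 and blue shRNA2. Most knockdown points lie above 0, and the 3 shRNA2 libraries of *TIMM22* lie far below.

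At the outer membrane the largest change was that of the small TOM subunit gene *TOMM6*. *TOMM6* was at 145, 138 and 144 FPKM in the control libraries, 173, 176 and 169.5 with shRNA1 and 166, 153 and 173 with shRNA2. Every knockdown library was above every control library, with a log2 change of 0.24 (SE 0.044, limma adjusted p = 0.00894). *TOMM22*, the central receptor that organises the TOM complex, showed a log2 change of 0.20 (SE 0.039, limma adjusted p = 0.011), from 54.9, 49.7 and 54.5 FPKM in control to 59.8, 61.9 and 62.4 with shRNA1 and 58.7, 59.7 and 62.5 with shRNA2, again without overlap. The calls of *TOMM6* and *TOMM22* held without each library in turn.

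The presequence receptor gene *TOMM20* was at 68.2, 73.2 and 72.6 FPKM in control libraries, 76.9, 77.2 and 77.5 with shRNA1 and 79.4, 86.8 and 82.2 with shRNA2. The 3 groups did not overlap and shRNA2 was highest, with a log2 change of 0.16 (SE 0.045, limma adjusted p = 0.0358) in knockdown. *TOMM34*, a cytosolic cochaperone of precursor proteins, rose from 38.9, 39.1 and 37.7 FPKM to 42.98, 40.3 and 44.1 with shRNA1 and 45.1, 42.3 and 44.8 with shRNA2 (0.16, limma adjusted p = 0.0208). *SAMM50*, the pore of the sorting and assembly machinery, was at 29.2, 28.9 and 30.99 FPKM in control libraries, 32.7, 33.4 and 32.7 with shRNA1 and 34.8, 31.97 and 33.8 with shRNA2 (0.16, limma adjusted p = 0.0156). For these 3 genes no knockdown library reached down to a control library. The call of *TOMM20* was lost without control library 1, control library 2, control library 3, shRNA2 library 1 or shRNA2 library 3 (limma adjusted p = 0.0553 to 0.142), that of *TOMM34* without any of the control libraries (0.0643 to 0.0799) and that of *SAMM50* without control library 1 or control library 2 (0.0692 to 0.0767).

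The other 7 outer membrane genes did not pass. *TOMM7* (0.15, limma adjusted p = 0.0585) and the receptor gene *TOMM70* (0.13, limma adjusted p = 0.0637) were nearest the threshold, and in both every knockdown library was above every control library. The same held for *MTX1* (0.070, limma adjusted p = 0.106), a metaxin of the sorting machinery. Its partner *MTX2* varied more within groups, at 11.2, 13.7 and 13.8 FPKM in control libraries and 12.2, 13.8 and 13.9 with shRNA2. The pore gene *TOMM40* had a log2 difference of 0.091 (limma adjusted p = 0.0874) and its paralog *TOMM40L* one of 0.053 (limma adjusted p = 0.441), from a level far below that of *TOMM40*. *TOMM5* had a log2 difference of 0.12 in the pooled comparison (SE 0.081, limma adjusted p = 0.322), and its libraries split by hairpin as described below.

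In the intermembrane space, the chaperone genes *TIMM10*, *TIMM9* and *TIMM8B* and the oxidoreductase gene *CHCHD4* rose. *TIMM10* was at 56.5, 62.2 and 63.2 FPKM in the control libraries, 74.8, 77.3 and 76.05 with shRNA1 and 74.1, 69.2 and 69.5 with shRNA2. It had the largest log2 change of the 33 genes, 0.27 (SE 0.05, limma adjusted p = 0.00832). On the log2(FPKM + 1) scale it alone met the criteria of the study's methods (at least 1.2-fold, with an unadjusted p under 0.01), and with a pseudocount of 0.1 or 0.01 *TIMM9* and *CHCHD4* met them as well. *TIMM9*, whose protein forms a ring-shaped hexamer with TIMM10, was at 32.5, 32.9 and 38.4 FPKM in control libraries, 39.6, 40.8 and 42.2 with shRNA1 and 42.3, 42.2 and 41.8 with shRNA2, with a log2 change of 0.26 (SE 0.052, limma adjusted p = 0.0116). *CHCHD4* was at 11.9, 12.8 and 13.3 FPKM in control libraries, 14.8, 15.97 and 14.4 with shRNA1 and 16.03, 15.6 and 14.7 with shRNA2, with a log2 change of 0.25 (SE 0.046, limma adjusted p = 0.00902). In all 3 the knockdown libraries stood above the control libraries without overlap. The calls of *TIMM10* and *CHCHD4* held without each library in turn, whereas that of *TIMM9* was lost without control library 1 or control library 2 (limma adjusted p = 0.0547 to 0.0597).

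*TIMM8B*, a partner of TIMM13 in a second chaperone hexamer, was at 32.00, 35.8 and 33.98 FPKM in control libraries, 37.5, 38.99 and 38.3 with shRNA1 and 36.1, 36.6 and 40.4 with shRNA2 (0.16, limma adjusted p = 0.0403). Its call was lost in 7 of the 9 fits with a library left out, all but those without shRNA2 library 1 and shRNA2 library 2 (limma adjusted p = 0.0521 to 0.158). It also rested on entries that RefSeq does not list as protein-coding transcripts, since with protein-coding accessions on primary chromosomes alone the change was -0.096 (limma adjusted p = 0.594). Its paralog *TIMM8A* was lower and scattered, at 2.19, 3.34 and 3.67 FPKM in control libraries, 3.28, 3.55 and 3.18 with shRNA1 and 2.47, 3.16 and 3.13 with shRNA2, and both knockdown groups overlapped with control. *TIMM13* had a log2 difference of 0.12 (limma adjusted p = 0.0883) and *TIMM10B* one of 0.032 (limma adjusted p = 0.534).

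Of the genes of the TIM23 complex, *TIMM23*, *TIMM50* and *TIMM44* were called and *TIMM17A*, *TIMM17B* and *TIMM21* were not. The channel gene *TIMM23* was at 92.5, 87.3 and 89.2 FPKM in the control libraries, 103, 96.3 and 100.3 with shRNA1 and 102, 103 and 108 with shRNA2. It showed a log2 change of 0.19 (SE 0.038, limma adjusted p = 0.0116) and no overlap, although its reads cannot be fully told apart from those of *TIMM23B*, which changed by 0.17 (limma adjusted p = 0.0321). *TIMM50*, the receptor of TIM23, was at 32.5, 33.1 and 31.9 FPKM in control libraries, 36.9, 36.3 and 36.8 with shRNA1 and 36.3, 33.6 and 34.6 with shRNA2 (0.13, limma adjusted p = 0.0316). *TIMM44*, which tethers the motor to the channel, changed by 0.11 (limma adjusted p = 0.0493), and its libraries overlapped. The call of *TIMM23* was lost without control library 2 (limma adjusted p = 0.0605), that of *TIMM50* without any 1 of 7 libraries, all but shRNA2 library 2 and shRNA2 library 3 (0.0547 to 0.111), and that of *TIMM44* without any 1 of 8, all but shRNA2 library 2 (0.0752 to 0.178).

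Of the motor and peptidase genes, *GRPEL1* was at 24.4, 24.02 and 23.5 FPKM in the control libraries, 25.5, 25.7 and 25.9 with shRNA1 and 27.8, 28.3 and 28.6 with shRNA2. GRPEL1 is the nucleotide exchange factor of HSPA9. The 3 groups were ordered without overlap, with a log2 change of 0.16 (SE 0.045, limma adjusted p = 0.0372) in knockdown. *PMPCA*, a subunit of the processing peptidase, rose from 57.9, 59.8 and 60.5 FPKM to 64.6, 61.3 and 63.7 with shRNA1 and 62.2, 64.2 and 65.7 with shRNA2, just inside the threshold (0.098, limma adjusted p = 0.0471). *TIMMDC1*, whose protein resembles the TIM17 family but assembles respiratory complex I, was at 24.5, 24.02 and 24.6 FPKM in control libraries, 27.9, 26.8 and 25.96 with shRNA1 and 27.7, 27.1 and 26.7 with shRNA2 (0.14, limma adjusted p = 0.0108). *TIMMDC1* lost its call without control library 2 (limma adjusted p = 0.057), *GRPEL1* without control library 1, control library 2, control library 3, shRNA2 library 1 or shRNA2 library 3 (0.0582 to 0.12), and *PMPCA* without any 1 of 8 libraries, all but shRNA1 library 2 (0.0538 to 0.178).

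The other 8 genes of the inner membrane and matrix, *TIMM22* aside, were not called in the pooled comparison. They were *TIMM29*, *TIMM17A*, *TIMM17B*, *TIMM21*, *PAM16*, *DNAJC19*, *HSPA9* and *PMPCB*, with log2 changes from 0.077 to 0.16 and limma adjusted p-values from 0.0828 to 0.365. *TIMM21*, which links TIM23 to the respiratory chain, was at 7.05, 7.82 and 7.81 FPKM in control libraries, 7.64, 8.08 and 8.50 with shRNA1 and 9.03, 9.46 and 8.82 with shRNA2, and the shRNA2 libraries alone lay above the control range in full. *PAM16* and *DNAJC19*, J-domain family proteins of the motor, overlapped between control and knockdown. The paralogs *TIMM17A* and *TIMM17B*, alternative subunits of TIM23 on different chromosomes, had like levels in control cells (48.9 ± 1.6 and 46.2 ± 2.2 FPKM, SD, n = 3) and did not pass the test (0.093 with a limma adjusted p = 0.0828 for *TIMM17A*, 0.13 with a limma adjusted p = 0.243 for *TIMM17B*). *TIMM17B* was the more scattered with shRNA2, at 48.1, 43.4 and 52.00 FPKM, and it was called without shRNA2 library 2 (0.17, limma adjusted p = 0.0363).

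Each hairpin was also compared with the same 3 control libraries, so the comparisons are not independent of each other. With shRNA1, 13 of 33 genes were called higher and 0 lower, against 11.7% and 7.19% of all tested genes. With shRNA2, 16 of 33 were called higher and 0 lower, against 15.3% and 11.4%. Called with both were 9 genes, *TOMM6*, *TOMM22*, *SAMM50*, *TIMM9*, *TIMM10*, *CHCHD4*, *TIMM23*, *TIMMDC1* and *GRPEL1*. The share of all tested genes called with both is not given here, so whether this overlap is more than that of other genes was not tested. Called with shRNA1 alone were *TIMM50*, *TIMM44*, *HSPA9* and *PMPCB*, and with shRNA2 alone *TOMM5*, *TOMM20*, *TOMM34*, *TIMM29*, *TIMM17A*, *TIMM21* and *PMPCA*. The remaining 13 were called with neither. Leaving out a library took the count with shRNA1 to between 3 and 18 and that with shRNA2 to between 9 and 16. The shares of all tested genes in those fits are not given here either.

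**Figure D3:**
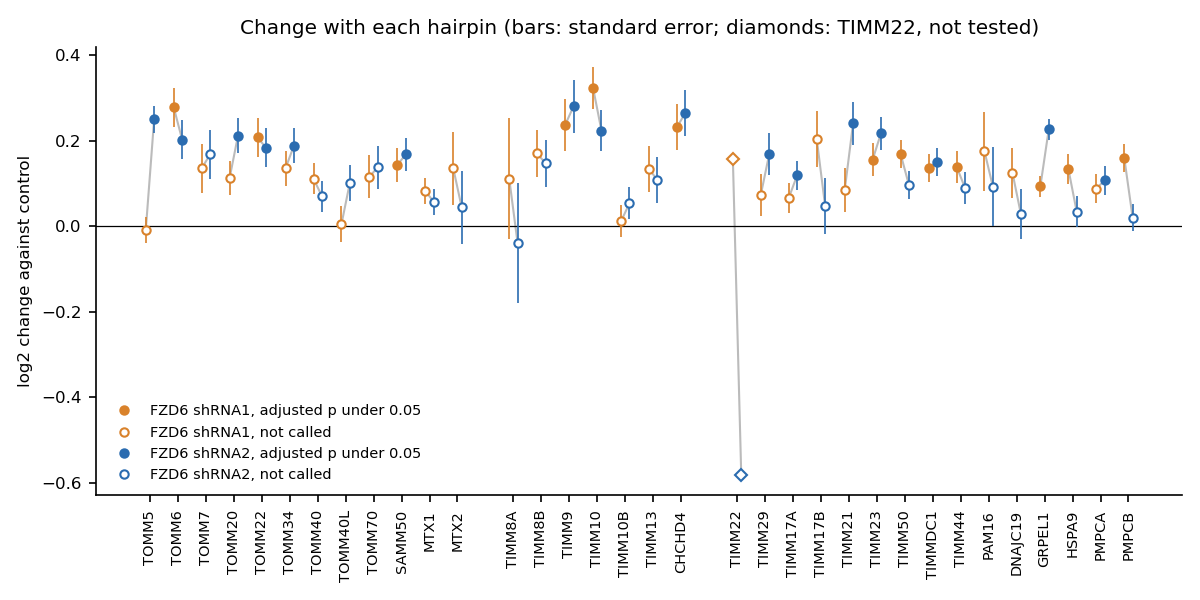
log2 change against the shared control libraries with shRNA1 (orange) and shRNA2 (blue) for each import gene tested. Bars are standard errors, filled points have a limma adjusted p under 0.05, and the diamonds are *TIMM22*, drawn without a test. The hairpins lie close together for most genes and apart for *TIMM22* and *TOMM5*.

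The direct comparison of shRNA2 with shRNA1 tests where the hairpins differ. The hairpins differed in *FZD6*, which was at the lower level with shRNA2 (difference -0.25, limma adjusted p = 0.0273). The comparison called 2 of the 33 genes higher with shRNA2 and 1 lower, against 1.92% and 4.79% of all tested genes. *TOMM5* was at 216, 217 and 229 FPKM in the control libraries, 219.9, 220.5 and 217 with shRNA1 and 258, 260.4 and 268 with shRNA2. *TOMM5* lies at chr9:37588413-37592597 (RefSeq, GRCh38.p14). With shRNA1 the values lay within the control range (log2 difference -0.0090, limma adjusted p = 0.866), but with the length trend described below removed *TOMM5* was called lower with shRNA1 (-0.13, limma adjusted p = 0.0245). Every shRNA2 library was above every other library. The difference of shRNA2 from shRNA1 was 0.26 (SE 0.031, limma adjusted p = 0.00388), and it held without each library in turn. *GRPEL1*, given above, differed by 0.13 (SE 0.025, limma adjusted p = 0.0209), a call lost without shRNA1 library 1, shRNA1 library 2, shRNA1 library 3 or shRNA2 library 3 (0.0574 to 0.0857).

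In the other direction, *PMPCB*, the catalytic subunit of the processing peptidase, was at 29.4, 30.1 and 30.3 FPKM in control libraries, 33.9, 33.6 and 33.01 with shRNA1 and 29.2, 31.5 and 30.3 with shRNA2. Against control it was called with shRNA1 (0.16, limma adjusted p = 0.0165) and not with shRNA2 (0.020, limma adjusted p = 0.682), and the difference of shRNA2 from shRNA1 was -0.14 (SE 0.032, limma adjusted p = 0.0453). That call was lost without any 1 of 8 libraries, all but shRNA2 library 2 (limma adjusted p = 0.0686 to 0.143). For the other 30 genes a difference was not shown, and the 95% interval of the difference reached from 0.070 to 0.33 on the log2 scale to either side of its estimate.

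*TIMM22*, the channel gene of the carrier translocase, was the import gene in which the hairpins lay farthest apart. *TIMM22* was at 12.1, 11.9 and 13.4 FPKM in the control libraries, 14.04, 13.5 and 14.4 with shRNA1 and 8.25, 7.59 and 8.09 with shRNA2. Each shRNA1 library was above each control library, and each shRNA2 library was far below both groups. The mean FPKM differed from that of control by 12.3% with shRNA1 and by -35.9% with shRNA2. On the log2(FPKM + 1) scale the difference from control was 0.16 with shRNA1 and -0.58 with shRNA2, and shRNA2 minus shRNA1 was -0.74. Ordered from the most negative, that difference ranked 132 among all 12509 tested genes. Averaging the hairpins would give -0.21, a value that describes neither group. An estimated 832 to 1785 fragments per library lay behind these values.

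The tables list *TIMM22* at 3 loci, on chromosome 17 and on 2 alternate contigs, with near-equal FPKM of 4.15 each in control libraries, 4.66 with shRNA1 and 2.66 with shRNA2. The 3 are entries of the same RefSeq transcript, so they are not separate observations of the lower level with shRNA2. In GENCODE v29 the longest *TIMM22* transcript has 4 exons, spans 997117 to 1003671 of chromosome 17 (GRCh38, plus strand) and is 3194 bases long. None of the 4 nearest tested genes passed the test between the hairpins. The difference of shRNA2 from shRNA1 was -0.14 for *NXN* (limma adjusted p = 0.105), -0.25 for the noncoding *LOC101927727* (limma adjusted p = 0.0814), -0.0070 for *ABR* (limma adjusted p = 0.940), which overlaps the end of *TIMM22*, and 0.0055 for *YWHAE* (limma adjusted p = 0.941). The letters that pair with bases 2 to 8 of the shRNA2 guide strand, the seed of an shRNA, were not found in this transcript, nor were those of shRNA1. The shRNA2 letters were present in 24.0% of 10645 tested genes' longest transcripts and in 7 of 35 import genes (*TOMM20*, *TOMM22*, *TOMM70*, *MTX2*, *TIMM21*, *DNAJC15* and *GRPEL1*), and those of shRNA1 in 17.9% and in 0.

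**Figure D4:**
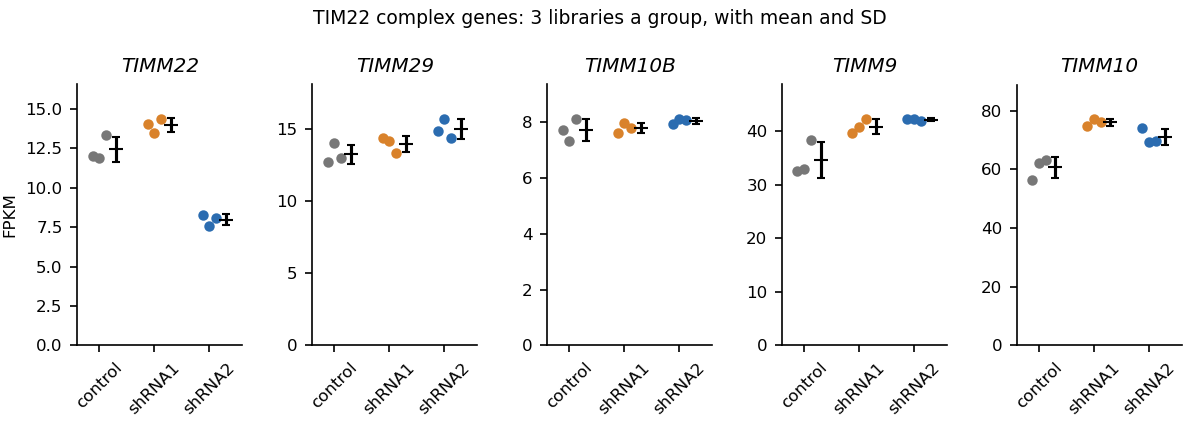
FPKM of the 5 genes of the carrier pathway at the inner membrane in every library, by group, with the mean and SD of 3 libraries beside the points and axes that start at 0. *TIMM22* is at 7.59 to 8.25 FPKM with shRNA2 against 11.9 to 14.4 in the other groups, while the other 4 genes show no such gap.

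The partners of TIMM22 were not called lower with shRNA2. *TIMM29*, a subunit of the TIM22 complex that contacts TOM, was at 12.7, 14.04 and 12.98 FPKM in control libraries, 14.4, 14.2 and 13.3 with shRNA1 and 14.9, 15.8 and 14.4 with shRNA2, higher than control with shRNA2 (0.17, limma adjusted p = 0.0399). *TIMM10B*, the small TIM that docks the chaperones on the complex, was at 7.71, 7.31 and 8.12 FPKM in control libraries, 7.60, 7.95 and 7.78 with shRNA1 and 7.93, 8.10 and 8.08 with shRNA2, and its groups overlapped. *TIMM9* and *TIMM10*, given above, were higher than control with shRNA2 as well (0.28, limma adjusted p = 0.0146, and 0.22, limma adjusted p = 0.0138). Between the hairpins, shRNA2 minus shRNA1 was 0.095 for *TIMM29* (95% interval -0.019 to 0.21), 0.042 for *TIMM10B* (-0.044 to 0.13), 0.044 for *TIMM9* (-0.099 to 0.19) and -0.10 for *TIMM10* (-0.21 to 0.012).

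Transcript length moved with the change. Across 12295 tested genes with a length in GENCODE v29, Spearman's rho between length and the log2 change in knockdown was -0.44, given as a description because all genes share the same libraries, and across the 33 import genes it was -0.25. Import transcripts are short, with a median of 1711 bases against 2643 bases over all tested genes, and 26 of 33 lie under that median. With the length trend of each library removed, 4 of 33 were called higher, against 6.57% of all tested genes. They were *TOMM6* (limma adjusted p = 0.0451), *TOMM20* (0.048), *TOMM22* (0.038) and *TOMM70* (0.0207), the last not called without the correction, and all 4 belong to TOM. The other 12 genes called before lay at a limma adjusted p = 0.0563 to 0.469, *CHCHD4*, *TIMM10* and *TIMM9* among them at 0.0788, 0.0809 and 0.0875. The log2 changes of *CHCHD4*, *TIMM10* and *TIMM9* were then 0.16, 0.15 and 0.15, no smaller than the 0.12 of *TOMM6* and near the 0.15 of *TOMM20*. The log2 change was then above 0 in 29 of 33, against 6326 of all 12509 tested genes. The medians were then 0.057 for the outer membrane, 0.058 for the intermembrane space and 0.053 for the inner membrane and matrix, against 0.0015 over all tested genes. Over all tested genes the calls were 1690 higher and 888 lower as deposited, 822 and 712 with the length trend removed, and 1505 and 1488 with a trend in GC content removed. The difference in *TOMM5* between the hairpins was called under both.

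**Figure D5:**
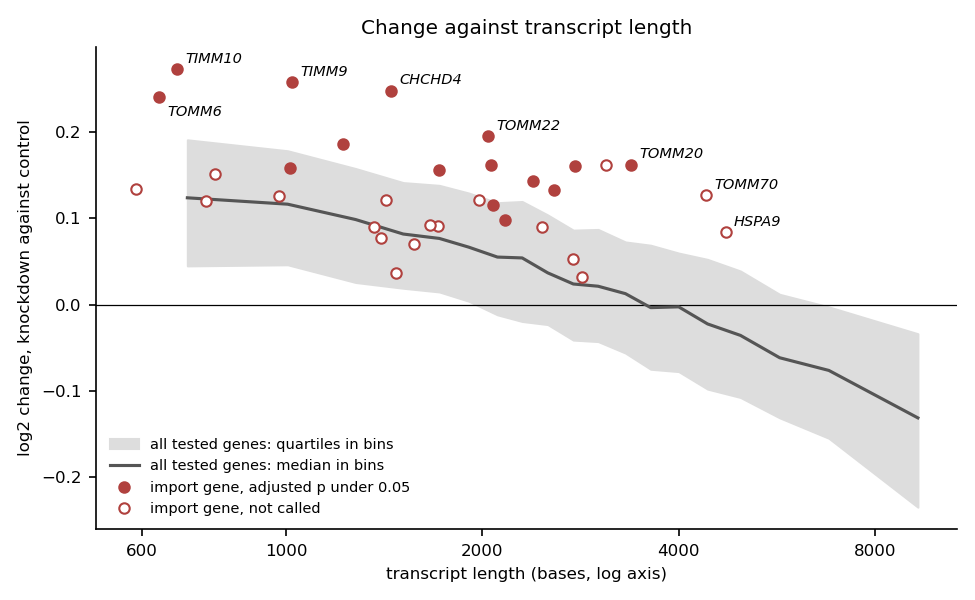
log2 change in knockdown against transcript length in bases on a log axis. The line and band are the median and quartiles of all tested genes in 19 bins of length, the shortest bin not drawn, and points are the 33 import genes, filled where the limma adjusted p was under 0.05. Most import genes lie above the median line at their length. Among those above the band are *TOMM20*, *TOMM22*, *TOMM70*, *TIMM9*, *CHCHD4*, *TIMM23* and *TIMM21*, so a place above it is not particular to TOM.

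Genes that work beside the import machinery were followed as a list of 31, of which 30 were tested. In knockdown 9 of 30 were called higher and 0 lower, against 13.5% and 7.1% of all tested genes, with a median log2 change of 0.099. With the length trend removed 4 of 30 were called higher, against 6.57% of all tested genes, with a median of 0.053 against 0.0015. The largest were *IMMP1L* (0.37, limma adjusted p = 0.0357), a peptidase of the inner membrane, *APOO* (0.23, 0.0429) and *MICOS13* (0.21, 0.0299), subunits of the complex that holds the cristae junctions, *GRPEL2* (0.23, 0.0455), the paralog of *GRPEL1*, and *OXA1L* (0.18, 0.00911), the insertase for proteins made inside mitochondria. With the length trend removed the calls of *IMMP1L* (limma adjusted p = 0.145), *APOO* (0.267) and *MICOS13* (0.205) were lost, and *GRPEL2* (0.0355) and *OXA1L* (0.0332) were still called. Between the hairpins 3 of 30 were lower with shRNA2 and 1 higher, against 4.79% and 1.92% of all tested genes. *HSPD1*, the matrix chaperonin that folds imported proteins, was at 133, 143 and 143 FPKM in control libraries, 153, 153 and 150.5 with shRNA1 and 123, 136 and 124 with shRNA2 (difference of shRNA2 from shRNA1 -0.25, limma adjusted p = 0.019). The matrix HSP70 gene *HSPA9* was also highest with shRNA1, at 94.97, 93.7 and 93.7 FPKM in control libraries, 103, 104 and 103 with shRNA1 and 91.8, 101 and 96.3 with shRNA2, without passing the test between the hairpins (-0.10, limma adjusted p = 0.15).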

How the data were processed

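RNA-seq was performed on 9 libraries of DU145 cells, 3 each with scrambled shRNA, *FZD6* shRNA1 and *FZD6* shRNA2, and samples were grouped by their titles. The authors prepared stranded mRNA libraries, mapped reads with STAR, and deposited FPKM calculated with Cufflinks for each RefSeq transcript and locus, with confidence bounds. The loci are those of hg38, the build in the submitters' processing notes, although the methods name mm10. FPKM are not counts, and no test for counts was applied to them. They are already divided by library size and transcript length, so a shift in a few abundant genes moves all others.

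Accessions (72645 of 73240) were paired with symbols through a RefSeq gene table of GRCh38.p14 and FPKM were summed per symbol. Left out were 42 genes in which Cufflinks gave an entry a status other than OK. Genes with a mean under 1 FPKM were not tested. Levels were transformed as log2(FPKM + 1), and a fold change on this scale understates the change of low genes. Depth, estimated from the bounds of genes with 1 transcript, was 33.03 to 41.4 M fragments per library, which put 105 to 20320 fragments behind an import gene. The 3 libraries per group limit the precision.

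The 6 knockdown libraries were set against the 3 control libraries with limma 3.58.1 (R 4.3.3), and p-values were adjusted by Benjamini and Hochberg over all 12509 tested genes and a threshold of 0.05. Each hairpin against control, and shRNA2 against shRNA1, were contrasts in a model with 3 groups over all 9 libraries. For *FZD6* an exact permutation test, two-sided, was added. A lowess curve (span 0.3) gave each library's trend in length and in GC content, with GENCODE v29 transcripts for 98.3% of tested genes. Promoter sequences are those of RefSeq for GRCh38.p14. The hairpins numbered 1 and 2 in the study's oligonucleotide table were taken as shRNA1 and shRNA2. Other steps used pandas 2.3.3, scipy 1.17.1, numpy 2.4.6 and matplotlib 3.10.9 in Python 3.11.15. The limma step was tested on simulated data for knockdown against control on 12509 genes.

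The genes, lists, motifs and tests were chosen with earlier results of these data known. Named genes were *TIMM22* and its partners, up to 5 called genes per location with the largest change, all genes called between the hairpins, 3 pairs of paralogs and the genes nearest the threshold. The alternatives were quantile normalization, median centring, a pseudocount of 0.1 or 0.01, a filter of 5 FPKM or none, removal of the GC or the length trend, the replicate number as a block, each library left out, protein-coding accessions on primary chromosomes, limma with trend and robust moderation, the 6 libraries compared alone, and the criteria of the study's methods. The study's p and fold thresholds were applied to limma p-values of the summed genes, whereas the study used a t-test. Other experiments of the study were not analysed here.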

Additional observations from a re-analysis of the deposited data

Results flagged for a closer look

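Effects under a shared control differed between the hairpins for 4 import genes. The difference of shRNA2 from shRNA1 on the log2(FPKM + 1) scale was 0.26 for *TOMM5*, 0.13 for *GRPEL1* and -0.14 for *PMPCB*, each past the threshold by limma. It was -0.74 for *TIMM22*, which was chosen for that difference and was not tested: all 3 shRNA1 libraries lay above and all 3 shRNA2 libraries below every control library. Among the 6 knockdown libraries of each of the 35 genes, no library stood apart from the others by Dixon's test, which chance would flag in about 1 of 20 groups. The test pooled both hairpins, so where they lay apart, as in *TIMM22*, it could hardly flag a library.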

How the results depend on the processing

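The counts of import genes called moved as follows. Against 15 genes in knockdown, 7 were called after quantile normalization, 4 with the length trend removed and 1 (*TIMM10*) by the criteria of the study's methods, or 3 (*TIMM10*, *TIMM9* and *CHCHD4*) by those criteria with a pseudocount of 0.1 or 0.01, alternatives chosen after seeing the data, and leaving out a library gave 4 to 17. Against 13 with shRNA1, the counts were 5 after quantile normalization and 6 with the length trend removed (5 higher and 1, *TOMM5*, lower), and 3 to 18 with a library left out, where control libraries 1, 2 and 3 gave 5, 4 and 8 and the shRNA1 libraries 3, 5 and 4. Against 16 with shRNA2, they were 8 with the length trend removed and 10 with only the 6 libraries compared, and 9 to 16 with a library left out. Against 3 between the hairpins, they were 5 with the GC trend removed and 1 with only the 6 libraries compared, and 1 to 4 with a library left out. With the length trend removed, all 12509 tested genes gave 822 higher and 712 lower calls in knockdown. They gave 758 and 770 with shRNA1, and 1402 and 1532 with shRNA2. Between the hairpins they gave 546 and 884 with the GC trend removed. Such totals are not given here for quantile normalization, left-out libraries, the 6 libraries compared alone, or the block with the length trend removed. The median change with the length trend removed was 0.0574 for the outer membrane, 0.0582 for the intermembrane space and 0.0533 for the inner membrane and matrix. The change of *FZD6* ranged from -1.20 to -1.02. *TIMM8B* reversed, to -0.0961, with protein-coding accessions on primary chromosomes. The difference of *TIMM22* between the hairpins ranged from -0.81 to -0.63, the smaller value with those accessions. *TIMM8A*, not called, was at -0.0503 in knockdown with the length trend removed, with or without the block, and at -0.130 to 0.146 with a library left out. *PMPCB* with shRNA2, not called, was at -0.0135 after quantile normalization, -0.0161 with the length trend removed, with or without the block, -0.0186 with the GC trend removed and -0.0064 to 0.0465 with a library left out. With a library left out *TIMM10B* in knockdown ranged from -0.0014 to 0.066 and *TOMM5* with shRNA1 from -0.0234 to 0.0182, neither of them called. Of 746 alternative values for single genes, 11 changed sign, 124 lost a call and 5 gained one. The causes were not tested.

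A pairing of the libraries by replicate number was not shown. Correlations of same-numbered libraries ran from -0.071 to 0.11 and not all exceeded 0.1, and those of differently numbered libraries ran from -0.12 to 0.18. Whether libraries of the same number were made together is not given in the sources used here. With the replicate block, 13 genes were called in knockdown, 11 with shRNA1, 16 with shRNA2 and 2 between the hairpins. All 12509 tested genes then gave 1539 higher and 837 lower calls in knockdown and 1531 and 994 with shRNA1. They gave 2024 and 1534 with shRNA2, and 243 and 559 between the hairpins. With the block and the length trend removed, the counts against control were 1 in knockdown, 3 with shRNA1 (2 higher and 1, *TOMM5*, lower) and 6 with shRNA2.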
